A study of Mus musculus with 12 samples.

Results

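Berberine, a plant alkaloid, was given to 3T3-L1 adipocytes for 6 h and compared with its solvent DMSO. The comparison took the 3 arrays labelled Berberine_6h and the 3 labelled DMSO, 6 of the study's 12 arrays, and all probe sets that are not controls. 3T3-L1 is a mouse fibroblast line that becomes fat cells when induced. In all groups differentiation had been started by 48 h of IBMX (0.5 mM), dexamethasone (1 µM) and insulin (5 µg/ml). The cells were then kept in serum and insulin and taken at days 8 to 10 of differentiation. They next spent 12 h without serum, in medium with 0.2% bovine serum albumin, and received DMSO or 5 µM berberine. The other arrays, 3 each of berberine for 3 h and 12 h, entered the shared estimate of spread and the comparisons of times. The labels do not give how long the DMSO cells were incubated, so an effect of berberine and one of time in culture cannot be told apart. They also do not say that the 3 arrays of a group came from separate cultures, so the p-values rest on the spread among the deposited arrays alone, and that spread may be technical.

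Signals are given on the log2 scale, and 5.77, the median of all deposited values on that scale, served as the detection threshold. All 15 mature adipocyte markers on the array had a mean at or above it in both groups, with a summed linear signal of 248914 to 313819 with DMSO and 295868 to 322858 at 6 h. Of 13 preadipocyte markers 11 did, and their sum was 114410 to 126971 with DMSO and 130222 to 137201 at 6 h, ranges that do not overlap. On single genes as deposited, 3 of 11 tested were called higher and 2 lower (median log2 change 0.15), and after quantile normalization 0 higher and 2 lower (median -0.04). Macrophage markers summed to 1006 to 1132 and 1165 to 1297, with 5 and 4 of 12 at or above the threshold. Their defining genes Ptprc (means 2.15 and 4.12) and Adgre1 (5.28 and 5.64) lay under it in both groups. Of 9 endothelial markers 1 reached it (sums 249 to 287 and 157 to 260), and Pecam1 had means of 3.09 and 2.93. Of 10 brown adipocyte markers 4 reached it with DMSO and 6 at 6 h (sums 4875 to 5624 and 5108 to 5474), and Ucp1 did in neither group (means 1.46 and 4.83). The spike control creX was brighter on the 6 h arrays (15.68 to 15.90) than on the DMSO arrays (15.30 to 15.66), and its part in the results was not tested. In cultures read in bulk, fewer cells of a type and less RNA per cell cannot be told apart.

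Berberine is known as an inhibitor of the mitochondrial respiratory chain and as an activator of the energy sensor AMPK. In the integrated stress response, kinases phosphorylate the initiation factor eIF2, most translation slows, and the transcription factor ATF4 is made and switches on genes for amino acid supply. Hypoxia-inducible factors (HIF) are transcription factors that are degraded when oxygen is present, and that drive glycolysis and their own prolyl hydroxylases when it is scarce. Fat cells respond to insulin by taking up glucose, storing glycogen and triglyceride and restraining lipolysis. Receptors for lactate, niacin and fatty acids on their surface act on the same balance.

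Of 12136 genes tested, 1726 (14.2%) differed between 6 h of berberine and DMSO at an adjusted p under 0.05 in limma's moderated test, which is what "called", "rose" and "fell" mean here. Rises numbered 879 (7.24%) and falls 847 (6.98%), and the median change over all genes was 0.01 on the log2 scale. Counts of list members below are to be read against these shares, and a count near them says little about its list. Most changes were small. The median rise was 0.37 and the median fall -0.42, and 78 genes (0.643%) changed by at least 1. The groups did not overlap in 3634 genes (29.9%), and 3231 (26.6%) had an unadjusted p under 0.05. The count depended on single arrays, with 1116 genes without DMSO replicate 1 and 1140 without 6 h replicate 2. A narrower set of 771 genes (6.35%) was called also with each of the 6 arrays left out in turn, after quantile normalization, without the intensity trend of the test and with the replicate number as a block, and had groups that did not overlap. Such a call is described below as one that held. Groups without overlap are a condition of it, so for these genes the lack of overlap is a description and adds no support. Of all genes, 1676 (13.8%) were called and had groups that did not overlap. The mean of a gene's probe sets was not among the fits required.

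**Figure D1:**
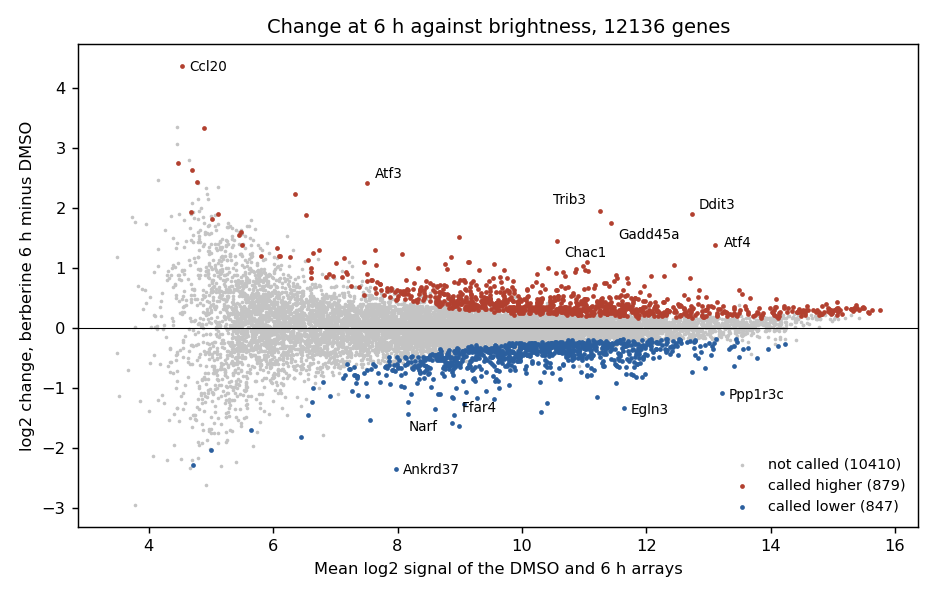
Change at 6 h against brightness for the 12136 genes tested, with called genes in red (879 higher) and blue (847 lower). The x axis is the mean log2 signal of the DMSO and 6 h arrays, and the y axis the log2 change (berberine 6 h minus DMSO). Of the 189 genes with a mean of 14 or more at the far right, 83 were called higher and 1 lower.

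A trend with brightness bears on several groups of genes. The 189 genes with a mean log2 signal of 14 or more had a median change of 0.20 as deposited and of 0.01 after quantile normalization. Among the 1653 genes with a mean under 6, those medians were 0.12 and 0.00.

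Regulators of the integrated stress response stood among the largest rises. Atf3, a transcription factor induced by stress, had log2 signals of 6.54, 6.63 and 5.77 with DMSO and 8.68, 8.52 and 8.96 at 6 h. The groups lay far apart, although the DMSO values start at the detection threshold. It rose 5.3-fold (2.41 ± 0.21 SE on the log2 scale, adjusted p = 1.2e-06). The gene Trib3, whose pseudokinase binds AKT and ATF4, went from 10.55, 10.30 and 10.03 to 12.17, 12.16 and 12.38, a 3.84-fold rise (adjusted p = 7.33e-10). Ddit3, which encodes the transcription factor CHOP, had a narrow spread in both groups, at 11.80, 11.81 and 11.78 with DMSO and 13.60, 13.66 and 13.79 at 6 h. Its rise was 3.7-fold (1.89 ± 0.06 SE, adjusted p = 1.5e-12), although its other probe set had a log2 change of 0.98 that was not called (adjusted p = 0.415). Atf4 itself had signals of 12.46, 12.41 and 12.38 against 13.72, 13.78 and 13.88. This 2.6-fold rise (adjusted p = 6.09e-10) was also seen in its other probe set, with a log2 change of 1.43.

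Genes that feed back on the response rose as well. Ppp1r15a, whose protein GADD34 helps to remove the phosphate from eIF2, had signals of 8.56, 8.11 and 8.12 with DMSO and 9.35, 9.35 and 9.62 at 6 h (2.25-fold, adjusted p = 1.14e-05). Jdp2, a repressor related to the ATF proteins, rose 2.03-fold, with 10.45, 10.54 and 10.43 against 11.46, 11.53 and 11.49. Nupr1, a small stress-induced chromatin protein, rose 1.54-fold (adjusted p = 1.1e-06). For these genes the DMSO and 6 h arrays did not overlap. In all, 10 of 16 regulators tested rose and 0 fell, with 8 calls that held, and their median change was 0.46 against 0.01 over all genes. Sesn2, a stress-induced sestrin, was called (0.99), but not without 6 h replicate 3 (adjusted p = 0.0729). Atf5, a relative of ATF4, was called (0.29), but not without 6 h replicate 3 (adjusted p = 0.0672). Eif4ebp1, a brake on translation, rose 1.22-fold in the probe set used (adjusted p = 0.174 with the mean of its probe sets). Cebpb (0.07) and Cebpg (0.07), bZIP partners of ATF4, did not pass. Of 15 genes of the eIF2 kinases, their regulators and eIF2 itself, 2 rose and 2 fell, against 7.24% and 6.98% of all genes. Eif2ak3, the kinase PERK of the endoplasmic reticulum, had signals of 10.34, 10.30 and 10.30 with DMSO and 9.89, 9.97 and 10.03 at 6 h, 1.28-fold lower (adjusted p = 0.00344). Eif2s2, a subunit of eIF2, was 1.4-fold higher (adjusted p = 0.000116).

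Promoters of 4 of the risen genes are shown because they hold the letters TGATGNAA (reverse form TTNCATCA), the core of the element through which ATF4 and its partners are known to bind amino acid response genes. Each is the 250 bases before the gene start in RefSeq (build GRCm38.p6), read on the strand of the gene, with the match in capitals. Positions count back from the gene start. They lie at chr1:191183334-191183583 (minus strand, match at -110), chr2:119350992-119351241 (plus strand, -193), chr3:50443614-50443863 (minus strand, -66 and -47) and chr6:7693210-7693459 (minus strand, -23).
Atf3: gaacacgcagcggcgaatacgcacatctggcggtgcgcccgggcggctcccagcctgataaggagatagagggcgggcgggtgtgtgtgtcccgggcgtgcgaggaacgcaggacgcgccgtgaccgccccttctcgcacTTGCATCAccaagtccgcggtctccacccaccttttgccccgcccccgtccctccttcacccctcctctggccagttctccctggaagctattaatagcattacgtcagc
Chac1: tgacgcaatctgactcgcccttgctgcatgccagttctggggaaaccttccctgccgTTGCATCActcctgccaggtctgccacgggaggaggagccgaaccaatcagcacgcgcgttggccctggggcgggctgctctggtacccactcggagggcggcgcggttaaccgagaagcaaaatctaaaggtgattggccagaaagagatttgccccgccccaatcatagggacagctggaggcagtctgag
Slc7a11: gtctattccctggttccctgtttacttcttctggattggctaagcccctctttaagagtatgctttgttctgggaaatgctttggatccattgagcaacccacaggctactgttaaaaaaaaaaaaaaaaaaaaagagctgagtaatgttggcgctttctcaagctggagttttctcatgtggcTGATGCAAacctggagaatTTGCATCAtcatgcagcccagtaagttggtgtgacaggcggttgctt
Asns: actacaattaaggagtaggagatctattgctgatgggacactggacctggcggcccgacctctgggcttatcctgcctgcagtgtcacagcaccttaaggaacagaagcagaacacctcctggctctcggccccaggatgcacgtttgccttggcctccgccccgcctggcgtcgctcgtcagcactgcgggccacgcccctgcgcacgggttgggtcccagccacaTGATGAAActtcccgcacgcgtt

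Promoter windows of 250 bases before to 50 after the start were searched on both strands, and 9806 of the 12136 genes had at least 1 window. The letters occurred in 3.97% of all 32851 windows and for 258 (2.63%) of the genes. They were found for 29 of 309 genes (9.39%) whose rise held, for 5 of 319 (1.57%) whose fall held, and for 5 of 13 regulators of the stress response. Those regulators are a list of known members of the response, and some, such as Atf3 and Trib3, are also among the risen genes. The motif was picked with these results known, and a match is a description of letters, not of binding.

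The enzymes that make and link amino acids also rose in many cases. Asns, the asparagine synthetase, had signals of 12.68, 12.32 and 12.63 with DMSO and 13.12, 13.14 and 13.21 at 6 h, a 1.53-fold rise (adjusted p = 0.00011). Mthfd2, a mitochondrial folate enzyme, went from 11.19, 10.93 and 11.26 to 11.87, 11.99 and 11.97 (1.76-fold, adjusted p = 1.68e-06). Cth, which makes cysteine from cystathionine, went from 11.02, 10.87 and 10.95 to 11.66, 11.67 and 11.75 (1.68-fold, adjusted p = 5.16e-07). In each the lowest 6 h array lay above the highest DMSO array. Of 17 genes of serine, folate and amino acid synthesis, 9 rose and 1 fell (median 0.32). The serine synthesis genes Psph and Phgdh rose 1.39-fold and 1.25-fold and the aspartate transaminase gene Got1 1.48-fold, whereas Psat1 had a log2 change of -0.01. Shmt2 and Aldh18a1 were called in the probe set used but not with the mean of their probe sets (adjusted p = 0.374 and 0.421). The single fall was Glul, the glutamine synthetase, at 13.37, 13.33 and 13.08 with DMSO and 12.82, 12.76 and 12.85 at 6 h (1.37-fold lower, adjusted p = 0.00123).

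Amino acid transporters divided. Slc7a11, the cystine carrier xCT, had signals of 5.92, 5.35 and 5.49 with DMSO, around the threshold, and 7.46, 7.14 and 7.76 at 6 h. It was at least 3.1-fold higher (adjusted p = 0.000301), where the bound sets DMSO values under the threshold to it. Slc3a2, the heavy chain that pairs with Slc7a11 and Slc7a5, rose 2.12-fold, from 10.69, 10.49 and 10.33 to 11.68, 11.59 and 11.49. Slc7a5, a carrier of large neutral amino acids, rose 1.88-fold and Slc7a1, a carrier of arginine and lysine, 1.97-fold. The groups of these genes did not overlap. Of 21 transporters tested 6 rose and 2 fell, with a median of -0.06, so the rises were a minority of the list. Slc1a4, a carrier of neutral amino acids, rose 1.6-fold in the probe set used (adjusted p = 0.102 with the mean of its probe sets). Slc1a3, a glutamate carrier, was 1.37-fold lower, and with the mean of its probe sets its adjusted p was 0.0766. Slc38a2 (0.10) did not pass.

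Chac1, which breaks down glutathione, had signals of 9.95, 9.80 and 9.78 with DMSO and 11.24, 11.14 and 11.49 at 6 h. Its rise of 2.73-fold (1.45 ± 0.09 SE, adjusted p = 8.16e-09) was the single call among 12 glutathione genes. The synthesis genes Gclc (-0.06), Gclm (0.18) and Gss (0.07) did not pass.

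Cytosolic and mitochondrial tRNA synthetases, which charge tRNAs with amino acids, gave different counts. Of 19 cytosolic ones 8 rose (median 0.24), or 5 without 6 h replicate 2, and 5 calls held. Cars had signals of 9.04, 8.87 and 8.80 with DMSO and 9.68, 9.58 and 9.59 at 6 h (1.64-fold, adjusted p = 0.000502). Tars rose 1.46-fold, Aars 1.41-fold, Sars 1.37-fold and Nars 1.35-fold. These 5 charge cysteine, threonine, alanine, serine and asparagine. Of 15 mitochondrial synthetases 0 were called by limma (1 higher and 0 lower at an unadjusted p under 0.05), with a median of -0.11. The difference between both counts was not tested.

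**Figure D2:**
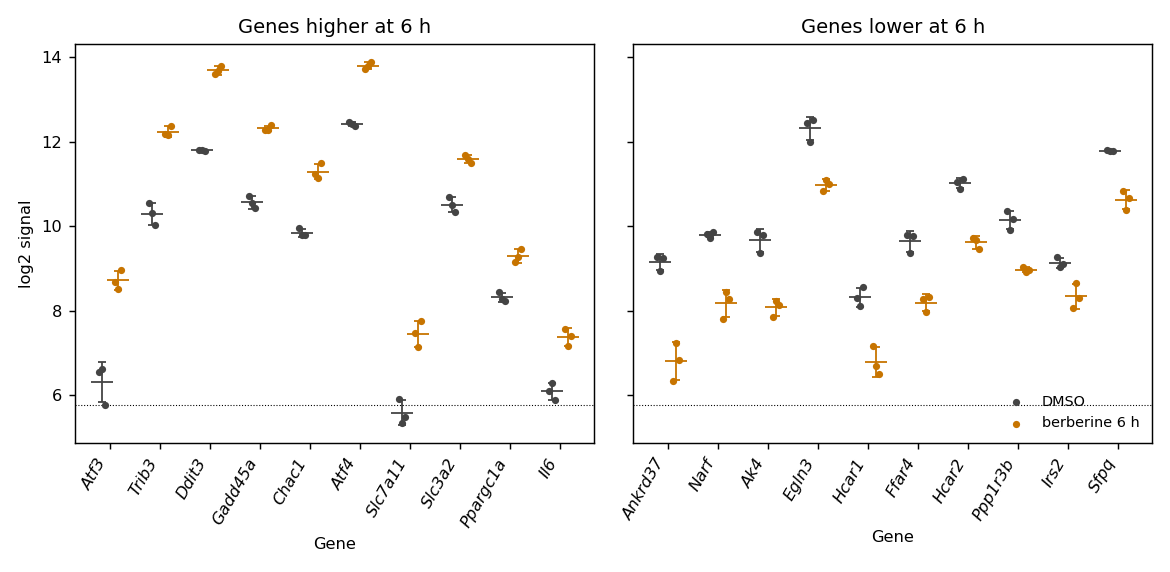
Log2 signal of 10 genes higher and 10 genes lower at 6 h, with each point an array, by colour for DMSO and berberine 6 h (3 arrays each), and bars for mean ± SD. The dotted line is the detection threshold of 5.77. In none of the 20 genes do the groups overlap, which was a condition of the calls that held.

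Targets of HIF were another group with many calls, and those were falls. Ankrd37, a small ankyrin-repeat gene that HIF is known to induce, had signals of 9.28, 8.93 and 9.25 with DMSO and 6.33, 7.23 and 6.84 at 6 h. It was 5.1-fold lower (-2.35 ± 0.23 SE, adjusted p = 3.82e-06), with a gap between the groups wider than the spread within either. Egln3, a prolyl hydroxylase that marks HIF for degradation, fell from 12.43, 12.00 and 12.51 to 10.83, 11.10 and 10.99 (2.53-fold, adjusted p = 6.73e-07). Egln1, the main enzyme of that family, had signals of 11.31, 10.74 and 11.11 against 10.33, 10.31 and 9.95 (1.81-fold lower, adjusted p = 0.000825). In each the highest 6 h array lay under the lowest DMSO array. Ak4, a mitochondrial adenylate kinase, was 3.01-fold lower, at 9.86, 9.36 and 9.78 with DMSO and 7.86, 8.23 and 8.14 at 6 h. Narf, a nuclear protein that binds prelamin A, was 3.08-fold lower (9.81, 9.73 and 9.85 against 7.80, 8.43 and 8.28).

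Promoters of Ankrd37 and Egln3 are shown because both hold ACGTG (reverse form CACGT), the core letters of the hypoxia response element, again as 250 bases before the RefSeq gene start with matches in capitals. They lie at chr8:45999851-46000100 (minus strand, matches at -241 and -6) and chr12:54203875-54204124 (minus strand, -229).
Ankrd37: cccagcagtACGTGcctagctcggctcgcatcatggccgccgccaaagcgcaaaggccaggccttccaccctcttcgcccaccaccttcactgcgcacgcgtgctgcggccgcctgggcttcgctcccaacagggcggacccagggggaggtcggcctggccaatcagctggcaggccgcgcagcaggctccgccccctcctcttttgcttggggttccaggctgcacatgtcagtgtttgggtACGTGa
Egln3: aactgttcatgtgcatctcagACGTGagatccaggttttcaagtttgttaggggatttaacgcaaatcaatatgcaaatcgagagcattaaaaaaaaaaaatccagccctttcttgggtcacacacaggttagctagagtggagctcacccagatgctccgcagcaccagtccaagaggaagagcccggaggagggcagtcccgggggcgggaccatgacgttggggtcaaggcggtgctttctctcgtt

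The 5 letters are common, in 19.6% of all windows and for 29.1% of the genes with a window. They were found for 18 of 22 HIF targets, a list made of known targets, for 115 of 319 genes (36.1%) whose fall held and for 113 of 309 (36.6%) whose rise held. The reverse form TTNCATCA ends in the CA with which CACGT begins, so matches of both motifs can overlap.

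Of 25 HIF targets 13 fell and 0 rose, with 12 calls that held and a median of -0.36, or -0.46 after quantile normalization. The collagen-modifying genes P4ha1, P4ha2 and Plod2 were 1.69-fold, 1.41-fold and 1.45-fold lower. The histone demethylase gene Kdm3a was 1.55-fold lower, Mxi1, an antagonist of MYC, 1.59-fold lower and Bnip3, a mitophagy receptor, 1.29-fold lower. Well-known targets that did not pass were Vegfa (-0.21, adjusted p = 0.317), Adm (0.11), Car9 (0.11) and Ero1a (0.08). The gene of the factor itself moved the other way. Hif1a had signals of 12.56, 12.52 and 12.66 with DMSO and 13.02, 13.05 and 13.20 at 6 h (1.42-fold higher, adjusted p = 2.63e-05), whereas Epas1, which encodes HIF-2α, had a log2 change of 0.07.

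Glycolysis genes, some of them HIF targets, fell in part. Hk2, a hexokinase, had signals of 12.47, 12.13 and 12.51 with DMSO and 11.55, 11.60 and 11.65 at 6 h (1.7-fold lower, adjusted p = 2.67e-05). Slc2a1, the basal glucose transporter GLUT1, was 1.57-fold lower (12.25, 12.05 and 12.11 against 11.46, 11.40 and 11.59). Its other 2 probe sets had changes of -0.73 and -0.73. Pdk1, which blocks pyruvate entry to the citric acid cycle, was 1.4-fold lower (adjusted p = 0.000875) and Pkm, pyruvate kinase, 1.39-fold lower (adjusted p = 0.00144). These 4 were the calls that held among 9 of 20 genes that fell (median -0.24). The count was 4 without DMSO replicate 1 and 5 without DMSO replicate 3 or 6 h replicate 1. Pgk1 (0.06) and Aldoa (0.01), enzymes of the same pathway, did not pass. By limma 0 of 6 pentose phosphate genes were called (0 at an unadjusted p under 0.05).

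Insulin signalling genes fell in 8 of 23 cases and rose in 1 (median -0.28). Irs2, an adaptor of the insulin receptor, had signals of 9.27, 9.04 and 9.10 with DMSO and 8.06, 8.66 and 8.29 at 6 h, 1.74-fold lower (adjusted p = 0.00193). Irs1, a related adaptor, was 1.44-fold lower (12.14, 12.01 and 12.49 against 11.89, 11.72 and 11.47, adjusted p = 0.00474), with a gap between the groups smaller than the spread within them. Pde3b, the phosphodiesterase through which insulin restrains lipolysis, was 1.48-fold lower (11.99, 11.63 and 12.04 against 11.27, 11.40 and 11.31). Grb14, an inhibitor of the insulin receptor, rose 1.47-fold, from 9.38, 9.62 and 9.24 to 10.00, 10.02 and 9.88. None of these 4 genes had overlapping groups. The other falls of the list were Foxo1 (-0.44), Sos1 (-0.41), Foxo3 (-0.33), Pik3r1 (-0.33) and Ptpn1 (-0.28). The count of falls was 5 without 6 h replicate 3. Insr, the receptor (-0.24, adjusted p = 0.114), Slc2a4, the insulin-responsive glucose transporter GLUT4 (-0.31, adjusted p = 0.0661), and Akt2 (-0.06) did not pass.

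The glycogen genes with the largest falls were targeting subunits of protein phosphatase 1, which activate glycogen synthase. Ppp1r3c was bright and tight, at 13.78, 13.60 and 13.89 with DMSO and 12.67, 12.69 and 12.65 at 6 h (2.13-fold lower, -1.09 ± 0.07 SE, adjusted p = 3.14e-08). Ppp1r3b was 2.26-fold lower (10.35, 9.92 and 10.16 against 9.03, 8.92 and 8.96) and Ppp1r3d 1.53-fold lower. Gys1, the synthase of muscle and fat, was 1.47-fold lower (10.52, 10.26 and 10.51 against 9.85, 10.05 and 9.73). In none of these 4 did the groups overlap. Of 13 glycogen genes 6 fell and 1 rose, Gyg, the glycogenin primer (1.3-fold), and the breakdown genes Pygl (-0.18) and Pygb (-0.06) did not pass.

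Receptors of the fat cell surface fell in 6 of 8 cases, with a median of -0.67. Hcar1, the lactate receptor, had signals of 8.29, 8.10 and 8.55 with DMSO and 7.17, 6.69 and 6.49 at 6 h (2.88-fold lower, adjusted p = 0.0014). Hcar2, the niacin and ketone body receptor, went from 11.05, 10.89 and 11.12 to 9.73, 9.67 and 9.45 (2.65-fold lower, adjusted p = 1.36e-07). Ffar4, a receptor of long-chain fatty acids, went from 9.80, 9.36 and 9.77 to 8.28, 7.96 and 8.32 (2.76-fold lower, adjusted p = 2.73e-06). In all 3 the groups lay well apart, and Hcar1 and Hcar2 are known to restrain lipolysis. Ffar2, a receptor of short-chain fatty acids, was 1.25-fold lower, and Ptger4, a prostaglandin receptor, had a change of -0.02.

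**Figure D3:**
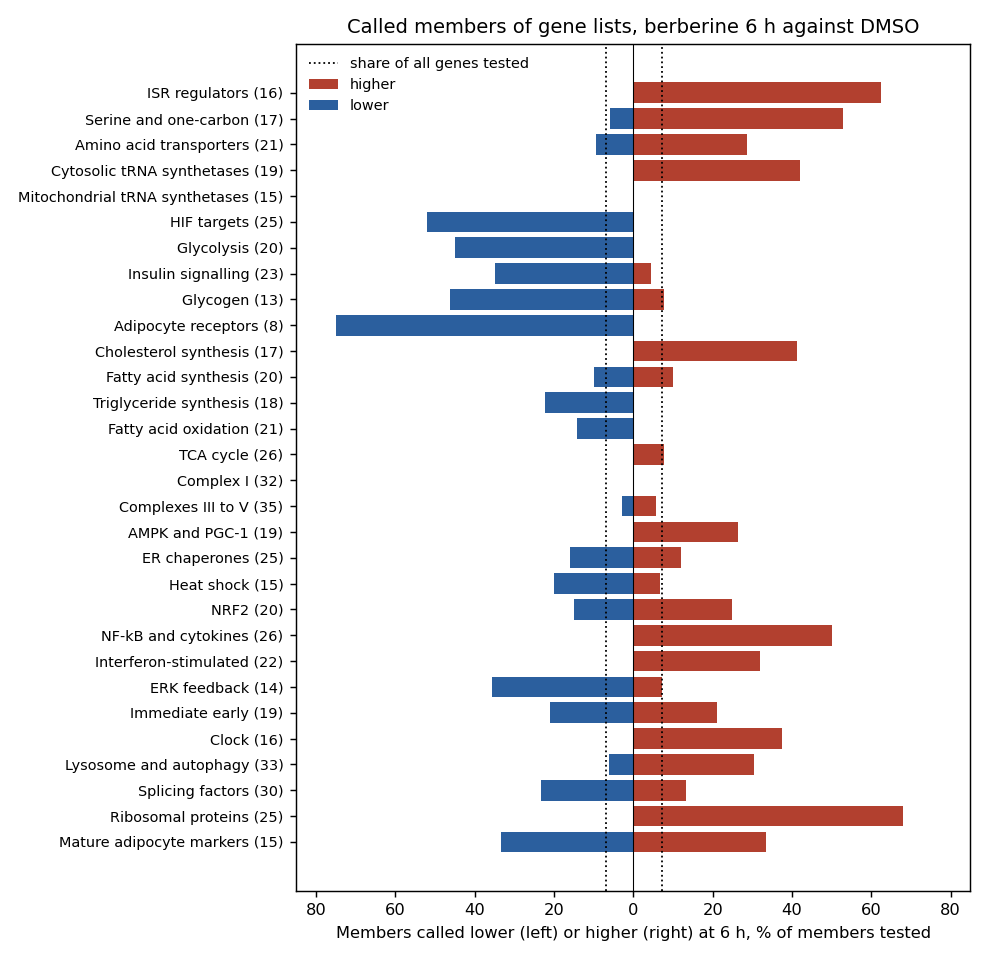
Share of the tested members of 30 gene lists called lower (left) or higher (right) at 6 h, in percent, with the number of members tested in brackets and dotted lines at the shares of all 12136 genes (6.98% lower, 7.24% higher). Stress response, amino acid and NF-kB lists extend to the right and HIF, glucose and receptor lists to the left, and the ribosomal protein bar (17 of 25 higher) drops to 1 gene after quantile normalization.

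Some sterol genes rose and others fell or did not pass. Cyp51, the lanosterol demethylase, had signals of 11.42, 11.02 and 11.46 with DMSO and 11.85, 11.97 and 11.99 at 6 h (1.55-fold, adjusted p = 0.000192). Mvd, an enzyme of the mevalonate pathway, went from 9.02, 8.99 and 8.97 to 9.59, 9.44 and 9.49 (1.43-fold, adjusted p = 0.000679), and Msmo1, a sterol oxidase, rose 1.28-fold. Insig1, a sensor that holds the SREBP complex in the endoplasmic reticulum, rose 1.28-fold (13.34, 13.12 and 13.27 against 13.56, 13.65 and 13.57). The groups did not overlap in these genes. Of 17 cholesterol synthesis genes 7 rose and 0 fell (median 0.19), with 4 calls that held, or 4 rises without the intensity trend. Among the rises, Sc5d had a change of 0.47 in the probe set used, but its other probe sets changed by -0.43 and -0.24, neither called. Sqle (0.03), Dhcr7 (-0.17) and Hmgcs1 (0.17) did not pass. Srebf2, the transcription factor of this pathway, had a change of 0.37 (adjusted p = 0.0193, or 0.898 with the mean of its probe sets). Of 14 sterol regulation genes 4 rose and 2 fell (median 0.00), and 2 rose with the mean of probe sets. The falls were Abcg1, a cholesterol exporter (-0.35, adjusted p = 0.01), and Scarb1, the HDL receptor (-0.39, adjusted p = 0.0146), named after their values were seen. Neither held: Abcg1 had an adjusted p of 0.0519 without DMSO replicate 3 and Scarb1 one of 0.0675 without 6 h replicate 2.

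Genes of fatty acid and triglyceride metabolism included rises and falls. Srebf1, a transcription factor of fatty acid synthesis, was 1.31-fold lower (11.50, 11.46 and 11.66 against 11.16, 11.17 and 11.11, adjusted p = 0.000721). Of 20 synthesis genes 2 rose and 2 fell, against 7.24% higher and 6.98% lower of all genes, and 1 rise and 1 fall held. The rises were Mid1ip1 (0.55, adjusted p = 0.000256) and Scd1 (0.33, adjusted p = 0.0186), and the other fall was Fasn (-0.35, adjusted p = 0.0203). Of 18 triglyceride genes 4 fell and 0 rose. Among droplet proteins, Cidec, which fuses lipid droplets, was 1.55-fold lower with a very narrow 6 h group (13.76, 13.59 and 13.81 against 13.10, 13.07 and 13.09, adjusted p = 7.43e-06). Fitm2, which partitions fat into droplets, was 1.33-fold lower. Pck1, which makes glycerol 3-phosphate for triglyceride in fat cells, was 1.86-fold lower by its brightest probe set (10.18, 9.78 and 10.20 against 8.99, 9.40 and 9.10), but its call ended with the mean of its probe sets (adjusted p = 0.27). Angptl4, a secreted inhibitor of lipoprotein lipase, was 1.76-fold lower (12.27, 12.19 and 12.26 against 11.63, 11.43 and 11.20), with an adjusted p of 0.0828 for the mean of its probe sets. Acsl3, a fatty acid CoA ligase of droplets, went up 1.9-fold, from 10.26, 10.41 and 10.53 to 11.30, 11.32 and 11.34 (adjusted p = 6.73e-07). Groups did not overlap in Srebf1, Cidec, Fitm2, Pck1, Angptl4 and Acsl3. Of 11 genes of lipolysis and droplets 3 fell and 1 rose, or 1 fell without DMSO replicate 3, and 1 fall held. Of 15 genes of fatty acid uptake 4 rose and 1 fell, or 1 rose and 2 fell after quantile normalization. In that list 1 rise and 1 fall held. Fatty acid oxidation fell in 3 of 21 genes, or 5 after quantile normalization, against 6.98% of all genes. Among them was Crat, the carnitine acetyltransferase (1.37-fold lower).

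Genes of the respiratory complexes and the tricarboxylic acid cycle gave few calls. By limma 0 of 32 complex I subunits were called (8 higher and 1 lower at an unadjusted p under 0.05), with changes between -0.16 and 0.21 and a median of 0.06. Without DMSO replicate 3, 4 of them were called higher, and after quantile normalization 3 were called lower and 0 higher (median 0.01). Of 35 genes of complexes III to V 2 rose and 1 fell, against 7.24% and 6.98% of all genes. In this list 10 rose without DMSO replicate 3 and 5 without 6 h replicate 1. Their median was 0.10 as deposited and -0.05 after quantile normalization. Cox6a1, a subunit of cytochrome oxidase, had bright signals of 14.66, 14.81 and 15.10 against 15.22, 15.39 and 15.23 (1.34-fold higher), a log2 change of 0.42 as deposited and 0.16 after quantile normalization (adjusted p = 0.0347). In the tricarboxylic acid cycle list 2 of 26 rose, a share near the 7.24% of all genes. They were Pdk4 and Pdp1, the kinase and phosphatase that switch pyruvate dehydrogenase off and on, named after their values were seen. Neither call held, Pdk4 having an adjusted p of 0.136 without 6 h replicate 1 and Pdp1 one of 0.0705 without DMSO replicate 3, and both were lost without 6 h replicate 2. After quantile normalization 2 rose and 2 fell. Of 16 genes of mitochondrial chaperones and proteases 3 rose and 0 fell, against 7.24% and 6.98% of all genes. They were Hspa9 (0.33), Grpel2 (0.48) and Yme1l1 (0.22). Of these rises 1 held, that of Hspa9, and with the mean of probe sets 0 were called.

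Ppargc1a, the coactivator PGC-1α of mitochondrial genes, rose 1.98-fold, from 8.43, 8.27 and 8.24 to 9.14, 9.27 and 9.47 (adjusted p = 4.54e-05), and its other 4 probe sets changed by 0.71 to 1.15. Fnip1 and Fnip2, partners of folliculin that bind AMPK, rose 1.44-fold and 1.33-fold. AMPK's own subunit gene Prkaa1 had a change of 0.00. Of 19 genes of AMPK and PGC-1 5 rose, or 3 without 6 h replicate 3. Lysosome and autophagy genes rose in 10 of 33 cases and fell in 2 (median 0.10), with 7 rises and 1 fall that held. The falls were the autophagy genes Atg13 (-0.61, adjusted p = 0.00585, or 0.153 with the mean of its probe sets) and Ulk1 (-0.32, adjusted p = 0.0339). Neu1, a lysosomal sialidase, rose 1.62-fold (9.30, 9.14 and 9.17 against 10.14, 9.74 and 9.82) and Gla, a galactosidase, 1.39-fold. Sqstm1, the autophagy receptor p62, rose 1.35-fold (11.60, 11.63 and 11.49 against 12.11, 11.98 and 11.94).

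Chaperones of the endoplasmic reticulum did not move together. Herpud1, which serves the degradation of misfolded proteins, rose 1.93-fold, from 10.47, 10.71 and 10.59 to 11.60, 11.53 and 11.49 (adjusted p = 3.09e-07). Syvn1, the ubiquitin ligase of the same machinery, was 1.54-fold lower (10.96, 10.88 and 11.08 against 10.35, 10.49 and 10.20). Neither gene had overlapping groups. Dnajb9, Dnajc3 and Creld2, chaperone genes of the unfolded protein response, were 1.32-fold, 1.38-fold and 1.28-fold lower. Hspa5, the main chaperone BiP, had a change of 0.13 (adjusted p = 0.368) and Xbp1 one of -0.06. Of 25 members 3 rose and 4 fell, and these 7 calls held. One of the rises, Ern1 (0.49), was lost with the mean of its probe sets (adjusted p = 0.609), where its sign changed. Its other probe set had a change of -1.3 that was not called. In the heat shock list Hsph1 and Hspa1b, cytosolic chaperones, were 1.52-fold and 1.33-fold lower. Of its 15 members 3 fell, against 6.98% of all genes, and 1 rose (median -0.04). The falls held, and the rise, Hspa4 (0.20, adjusted p = 0.0484), did not (adjusted p = 0.193 without DMSO replicate 1). The third fall, in Dnajb1, lost its call with the mean of its probe sets (adjusted p = 0.325). In the list of oxidative stress genes, Hmox1, heme oxygenase, rose 2.08-fold, at 9.13, 9.12 and 8.80 with DMSO and 10.00, 10.01 and 10.21 at 6 h (adjusted p = 5.15e-06). Of 20 members 5 rose and 3 fell, and Nqo1 (-0.27), a standard target of NRF2, did not pass. Of the rises 4 held, and 3 members rose with the mean of probe sets. The falls, in Abcc4, Cat and Gstm1, did not hold. Without 6 h replicate 2 their adjusted p-values were 0.101, 0.135 and 0.221, and without DMSO replicate 1 all 3 calls were lost too.

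Several cytokine and chemokine genes rose. Il6 had signals of 6.10, 6.29 and 5.88 with DMSO, just above the threshold, and 7.57, 7.16 and 7.41 at 6 h (2.44-fold, adjusted p = 0.000534). Cxcl1, a neutrophil chemokine, went from 11.46, 11.93 and 11.53 to 12.37, 12.45 and 12.67 (1.82-fold, adjusted p = 0.000245). Ccl2, which attracts monocytes, went from 11.30, 11.58 and 11.15 to 12.11, 12.15 and 12.01 (1.68-fold, adjusted p = 0.000346). The groups did not overlap in these genes. Ccl20, another chemokine, lay under the threshold on all DMSO arrays (2.73, 2.91 and 1.40) and above it at 6 h (6.52, 7.18 and 6.43), at least 1.92-fold higher (adjusted p = 0.000686). Of 26 genes of NF-kB and cytokines 13 rose (median 0.37), or 7 without DMSO replicate 3. Nfkbia, the inhibitor that NF-kB induces, had a change of -0.13 (adjusted p = 0.361). The summed signal of the macrophage markers was 1006 to 1132 with DMSO and 1165 to 1297 at 6 h, 1 of 5 tested, Cd14, rose (0.34, adjusted p = 0.122 without DMSO replicate 3), and Ptprc and Adgre1 lay under the threshold. The part of such cells in the cytokine values was not tested.

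Interferon-stimulated genes rose in 7 of 22 cases, but 1 call held. The count was 1 without DMSO replicate 2, 2 without 6 h replicate 3, 3 without DMSO replicate 1, 3 without DMSO replicate 3 and 4 without 6 h replicate 2. The call that held was Ifit2, an antiviral protein, at 8.55, 8.55 and 8.48 with DMSO and 9.06, 9.30 and 9.49 at 6 h (1.69-fold, adjusted p = 0.00323).

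Gadd45a, a stress sensor of growth arrest, rose 3.35-fold (1.75 ± 0.08 SE, adjusted p = 2.15e-10), from 10.72, 10.55 and 10.42 to 12.27, 12.28 and 12.39. Of its relatives, Gadd45b rose 1.52-fold (adjusted p = 0.00175, or 0.0893 with the mean of its probe sets). Gadd45g was 2.08-fold lower (9.78, 9.81 and 10.28 against 8.96, 8.99 and 8.75), so the family did not move one way. Of 20 genes of p53 and growth arrest 6 rose and 2 fell, and Cdkn1a, the p21 inhibitor of the cell cycle, had a change of -0.04.

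Feedback inhibitors of the ERK pathway included large falls, but 8 of 14 members were not called. Dusp6, the phosphatase of cytosolic ERK, had signals of 8.05, 7.85 and 7.90 with DMSO and 6.87, 6.65 and 6.91 at 6 h (2.18-fold lower, adjusted p = 0.00351). Dusp4, its nuclear relative, was 2.15-fold lower (9.30, 9.09 and 9.30 against 8.24, 7.98 and 8.16). Spry4, an inhibitor of growth factor receptor signalling, was 2.56-fold lower by its brightest probe set, at 9.43, 9.30 and 9.15 against 7.75, 7.94 and 8.10. The groups of these genes did not overlap. With the mean of its probe sets the adjusted p of Spry4 was 0.116. Of 14 members 5 fell and 1 rose (median -0.07), with 3 falls and 0 rises that held, or 3 fell without 6 h replicate 2. The rise was Dusp10 (0.40, adjusted p = 0.0409). Spry1 (0.13), Spry2 (0.02), Spred1 (-0.08) and Spred2 (0.07), of the same list, did not pass. The growth factor response genes Egr1 and Myc were 1.65-fold and 1.36-fold lower, whereas Nr4a1, an orphan nuclear receptor, rose 1.63-fold, from 9.19, 9.08 and 8.90 to 9.98, 9.77 and 9.55. Of the 19 members of their list, the immediate early genes, 4 rose and 4 fell (median -0.04). Rises numbered 1 with the mean of probe sets. The other rises were Jun (0.33), Jund (0.34) and Klf4 (0.37), and the other falls Fosl2 (-0.46) and Maff (-0.44).

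Clock genes rose in 6 of 16 cases (median 0.18), with 4 calls that held. Dbp, a clock output factor, went from 10.21, 10.43 and 9.96 to 11.18, 11.12 and 11.08 (1.9-fold, adjusted p = 7.1e-06). Nr1d2, the repressor REV-ERBβ, went from 10.76, 10.88 and 10.87 to 11.53, 11.48 and 11.48 (1.58-fold, adjusted p = 1.6e-06). Neither gene had overlapping groups. Cry1, a repressor of CLOCK, rose 1.69-fold and Nfil3, which opposes Dbp, 1.55-fold. Cry2 (0.40) and Per3 (0.41) were the other rises. Core clock genes that did not pass were Per1 (0.14), Per2 (0.10), Arntl (0.21), Clock (0.11), Nr1d1 (0.12) and Npas2 (-0.76). 

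RNA-processing genes were among the falls. Sfpq, an RNA-binding protein of paraspeckles, had signals of 11.81, 11.77 and 11.78 with DMSO and 10.83, 10.39 and 10.67 at 6 h (2.23-fold lower, adjusted p = 3.09e-07). Its other 5 probe sets did not all follow, with changes of -1.45 and -0.75 that were called and of 0.24, -0.27 and 0.48 that were not. The splicing factor gene Srsf2 was 1.73-fold lower (12.22, 12.11 and 12.25 against 11.40, 11.25 and 11.56), Srsf3 1.42-fold and Srsf6 1.34-fold lower. Further probe sets of Srsf3 had changes of -1.11, -0.91, -1.16 and -0.77, all called, and of 0.09, not called. Clk4, a kinase of splicing factors, rose 1.52-fold. Taf15, an RNA-binding protein of the FET family, rose 2.84-fold, with a wide spread in both groups (7.71, 8.71 and 8.30 against 10.23, 9.55 and 9.46, adjusted p = 0.000675). Of 30 splicing genes 4 rose and 7 fell, and the rises numbered 2 without DMSO replicate 1 or 6 h replicate 2.

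Ribosomal protein genes, which are bright, rose in 17 of 25 cases as deposited (median 0.29) and in 1 after quantile normalization (median 0.03), and 0 of the calls held. They numbered 8 without DMSO replicate 1 and 7 without 6 h replicate 2. Adipocyte markers were as sensitive. Of 15 of them 5 rose and 5 fell as deposited, and 0 rose and 4 fell after quantile normalization. Rises numbered 0 without DMSO replicate 1 or 2 or 6 h replicate 2 and 3 without 6 h replicate 1 or 3. Falls numbered 2 without DMSO replicate 1 and 1 without DMSO replicate 3 or 6 h replicate 2. Adipoq, which encodes adiponectin, had signals of 15.05, 15.06 and 15.49 with DMSO and 15.47, 15.62 and 15.49 at 6 h, values that overlap (0.33, adjusted p = 0.0325, or 0.721 after quantile normalization). Pparg, the main transcription factor of fat cells, had 13.08, 12.98 and 13.07 against 13.31, 13.35 and 13.10, groups that did not overlap (0.21, adjusted p = 0.041, or 0.182 without 6 h replicate 2).

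Other genes with large changes mostly belong to none of the lists. Mex3b, an RNA-binding ubiquitin ligase, rose 2.46-fold (7.06, 7.11 and 6.77 against 8.23, 8.21 and 8.41), Id4, an inhibitor of bHLH factors, 2.35-fold and Klf11, a zinc finger factor, 2.13-fold. Gxylt2, a xylosyltransferase, rose 2.13-fold and Gabpb1, a subunit of the ETS factor GABP, 2.24-fold, although the other probe set of Gabpb1 had a change of 0.14. Among the falls, Inhbb, the β subunit of activin B, had signals of 9.69, 9.60 and 9.84 against 8.52, 8.52 and 8.26 (2.42-fold lower, adjusted p = 2.07e-06). None of the genes in this paragraph had overlapping groups. Fbxo9, an F-box protein, was 2.37-fold, Aatk, a kinase, 2.35-fold, Rasd1, a small G protein induced by dexamethasone, 2.26-fold and Sema3g, a semaphorin, 2.25-fold lower. Eppk1, a cytoskeletal linker with a 6 h mean under the threshold, was at least 2.85-fold lower (7.21, 6.93 and 7.90 against 5.97, 5.24 and 5.37, adjusted p = 0.00268).

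**Figure D4:**
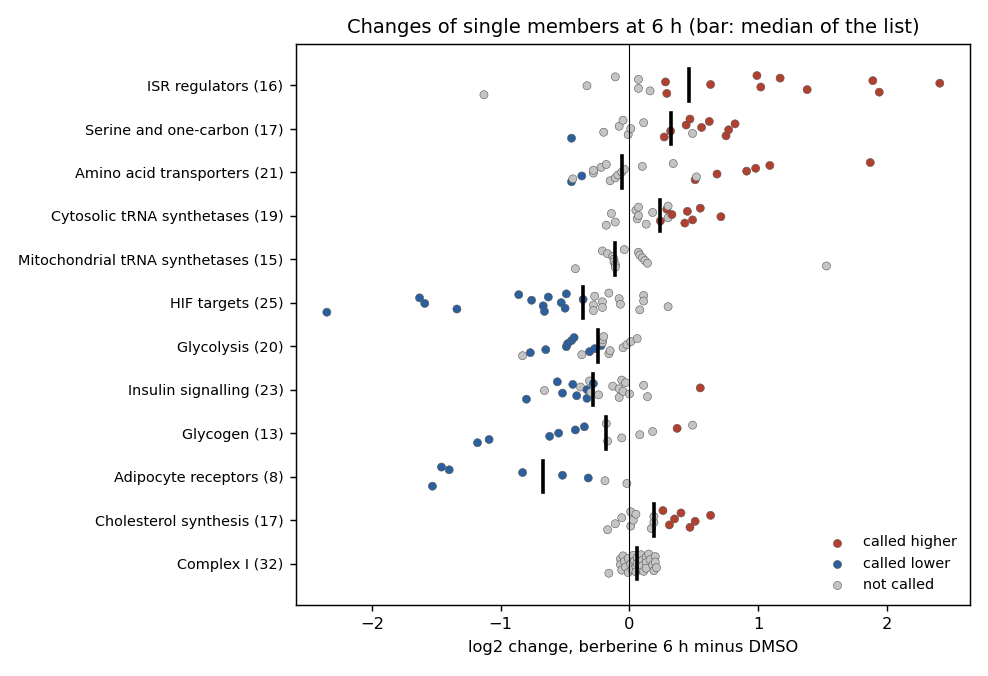
Log2 change (berberine 6 h minus DMSO) of every tested member of 12 gene lists, each point a gene, coloured by whether it was called higher, called lower or not called, with a bar at the median and the number of members in brackets. Medians run from -0.67 for the adipocyte receptors to 0.46 for the stress response regulators, and the 32 complex I genes all lie between -0.16 and 0.21.

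Tests between the berberine times place the 6 h values, and they use the same 6 h arrays as the comparison with DMSO. Against DMSO itself, 231 genes (1.9%) were called at 3 h, 132 higher (1.09%) and 99 lower (0.816%), and 3426 (28.2%) at 12 h. Against 3 h, 284 genes (2.34%) differed, 145 higher (1.19%) and 139 lower (1.15%) at 6 h. Leaving out a 3 h array gave 99 (replicate 1), 116 (replicate 2) or 85 (replicate 3), and leaving out 6 h replicate 2 or 3 gave 107 or 97. Against 12 h, 690 genes (5.69%) differed, 304 higher (2.5%) and 386 lower (3.18%) at 12 h. Leaving out 6 h replicate 1 or 2 gave 443 or 376, and leaving out a 12 h array gave 450 (replicate 1), 435 (replicate 2) or 410 (replicate 3). Of the stress response regulators, 9 of 16 were higher at 6 h than at 3 h and 6 higher at 12 h than at 6 h. Ddit3 stood 1.05 above 3 h (adjusted p = 2.55e-08) and rose by a further 0.53 to 12 h (adjusted p = 7.14e-05). Trib3 stood 1.16 above 3 h and rose by 0.59 more. Hmox1 rose by 0.79 from 3 to 6 h and by 1.33 from 6 to 12 h.

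Falls differed in their timing. Ankrd37 was already lower at 3 h (-2.50 against DMSO, adjusted p = 8.46e-06), with a change of 0.15 from 3 to 6 h (adjusted p = 0.822) and of -0.19 from 6 to 12 h (adjusted p = 0.721). Egln3 had a step of -0.67 from 3 to 6 h and of -0.65 from 6 to 12 h (adjusted p = 0.00452 and 0.00185). Hcar2 had steps of -0.76 and -0.75 and Sfpq of -0.61 and -0.34, all called. Irs1 had a step of -0.52 from 3 to 6 h (adjusted p = 0.0218), after a change of -0.00 from DMSO to 3 h. Of HIF targets 3 of 25 were lower at 6 h than at 3 h, and 6 were lower and 2 higher at 12 h than at 6 h.

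Few genes had their extreme at 6 h, with 2 higher (0.0165%) and 5 lower (0.0412%) than at both other times. The count of 7 was 0 without 3 h replicate 3, 1 without 3 h replicate 1, 2 without 12 h replicate 1 and 3 without 3 h replicate 2 or 6 h replicate 2. Chac1 stood 0.36 above 3 h (adjusted p = 0.0339) and changed by -0.35 to 12 h (adjusted p = 0.0209). Insig1 stood 0.24 above 3 h and changed by -0.34 to 12 h. The 5 low genes were Dgcr8, which acts in microRNA processing, Flvcr1, a heme and choline carrier, Hbs1l, Sec24d and Yod1. Hbs1l and Sec24d were not called against DMSO at 6 h (adjusted p = 0.237 and 0.364).

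**Figure D5:**
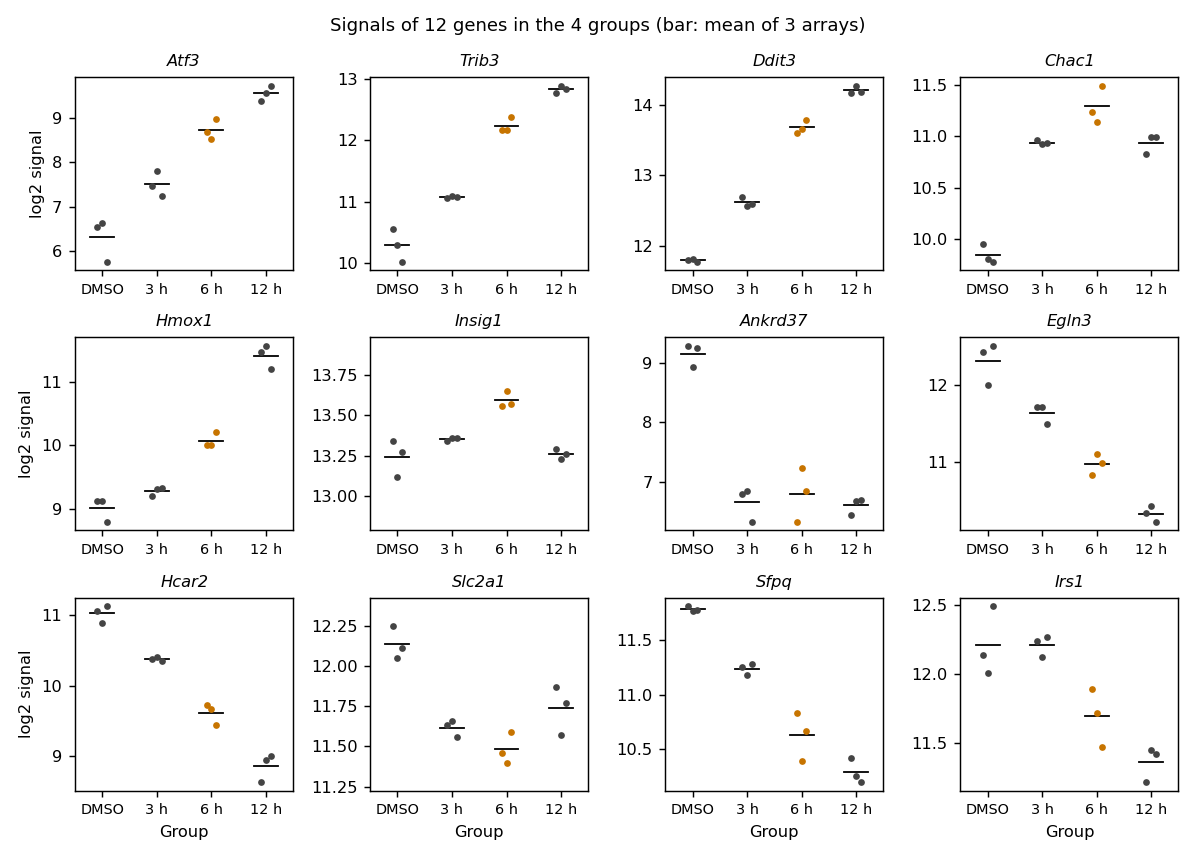
Log2 signal of 12 genes on the DMSO, 3 h, 6 h and 12 h arrays, each point an array and each bar the mean of 3 arrays, with a separate y axis for every gene. By their means Atf3, Trib3, Ddit3 and Hmox1 are highest at 12 h and Chac1 and Insig1 at 6 h, and Egln3, Hcar2 and Sfpq go down at every step.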

How the data were processed

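RNA of 3T3-L1 adipocytes was read on 12 Affymetrix arrays, 3 for each of 4 groups. The authors computed a MAS5 signal per probe set, per the submitters' processing notes, whose version is not given in the sources used, and the trimmed mean of the signal is 500 on every array, so each array carries 1 scaling factor. The deposited signals were turned to log2 values here. Of 45101 probe sets 64 controls were left out. Gene names came from the platform annotation, which gives 1 symbol for 34945 probe sets, several for 932 and none for 9160, and probe sets with several or none were not named. Those with at least 3 of 12 arrays at or above the threshold of 5.77 (54.6 on the linear scale) were kept (25053), and the kept probe set with the highest mean stood for its gene (5611 genes had more than 1). In 104 genes that probe set was of the type that can match other transcripts.

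Group means of all 12 arrays were fitted with limma 3.58.1 (R 4.3.3) with an intensity trend and 8 residual degrees of freedom, and p-values were adjusted by Benjamini-Hochberg over 12136 genes. The script was tested on simulated data. Tables and plots used Python 3.11.15, pandas 2.3.3 and matplotlib 3.10.9. Named genes are the 15 largest rises and the 15 largest falls, up to 6 bounds, up to 4 genes a list, up to 5 per direction with an extreme at 6 h and a few single genes, all but the last 2 kinds with calls that held; other members of the lists are named to show what did or did not pass. The 57 lists hold 1172 genes, 1084 of them on the array. The comparison and the lists were chosen with earlier results of these data known. Alternatives were quantile normalization, no intensity trend, only the arrays compared, the mean of a gene's probe sets, no filter, dim values raised to the threshold, 16 added to the signal, the replicate number as a block and each array left out. The number of arrays limits the precision. Cyp1a1, Fgf21 and Gdf15 were not analysed here.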

Additional observations from a re-analysis of the deposited data

Results flagged for a closer look

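Values at 6 h differed from those at the other berberine times by the same test that was used against DMSO, for 284 genes against 3 h and 690 against 12 h. Of the 45 genes with the largest changes, bounds, an extreme at 6 h or a listing as single genes, 24 differed between 6 h and 3 h and 22 between 12 h and 6 h. Most of these were chosen by their change at 6 h, so both counts are a description.

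Log2 changes from 3 to 6 h were positive and called for Atf3 (1.22), Trib3 (1.16), Ddit3 (1.05), Slc7a11 (1.45), Gadd45a (0.63), Chac1 (0.36), Atf4 (0.66), Mex3b (0.75), Ppp1r15a (0.88), Hmox1 (0.79), Asns (0.51) and Insig1 (0.24). They were negative and called for Sec24d (-0.26), Hbs1l (-0.47), Yod1 (-0.66), Irs1 (-0.52), Flvcr1 (-0.52), Dgcr8 (-0.63), Sfpq (-0.61), Fbxo9 (-0.49), Inhbb (-0.59), Egln3 (-0.67), Hcar2 (-0.76) and Ak4 (-0.75). The stress response genes Atf3, Trib3 and Ddit3 thus stood above their 3 h level, and the receptor gene Hcar2 and the prolyl hydroxylase gene Egln3 below it.

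From 6 to 12 h, positive called changes were those of Atf3 (0.82), Trib3 (0.59), Ddit3 (0.53), Ppp1r15a (0.56), Hmox1 (1.33), Sec24d (0.27), Hbs1l (0.42), Yod1 (0.58), Flvcr1 (0.47) and Dgcr8 (0.63). Negative called changes were those of Chac1 (-0.35), Insig1 (-0.34), Pparg (-0.30), Sfpq (-0.34), Rasd1 (-0.90), Aatk (-0.98), Fbxo9 (-0.44), Inhbb (-0.53), Egln3 (-0.65), Spry4 (-0.57), Hcar2 (-0.75) and Hcar1 (-1.06). Chac1, Insig1, Sec24d, Hbs1l, Yod1, Flvcr1 and Dgcr8 changed sign between both steps.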

How the results depend on the processing

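Counts of calls moved with the processing. With the mean of a gene's probe sets, 1099 genes differed from DMSO at 6 h (545 higher, 554 lower), 146 differed between 6 h and 3 h, and 4 had their extreme at 6 h. Without the intensity trend, 582 genes were higher than DMSO at 6 h, 60 differed between 6 h and 3 h, 296 between 12 h and 6 h, and 2 had their extreme at 6 h. After quantile normalization 3 genes had it. With an array of the groups compared left out, the genes that differed from DMSO numbered 1116 to 1523, the higher ones 568 to 781 and the lower ones 545 to 742; with a 3 h or 12 h array left out they numbered 1604 to 1771, 806 to 908 and 798 to 863. Those that differed between 6 h and 3 h numbered 85 to 229, those between 12 h and 6 h 376 to 539, and those with their extreme at 6 h 0 to 7. With fewer arrays a test has less to go on, and for the other settings the cause was not tested.

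Of the named genes, 5 changed sign with the mean of their probe sets, Ern1 (-0.41), Fosl2 (0.11), Klf3 (0.03), Psmc6 (-0.07) and Sc5d (-0.06), and none of these values was called. A further 19 named genes lost their call there. Replicate numbers did not pair the samples, with correlations between same-numbered DMSO and 6 h deviations of -0.02, -0.00 and -0.01. With the replicate number as a block, 1713 genes differed from DMSO at 6 h (863 higher, 850 lower), 275 between 6 h and 3 h and 677 between 12 h and 6 h, and 5 had their extreme at 6 h. Signal over background limits dim genes: of the called genes, 21 had 1 group mean under the detection threshold and 1 had both.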

Other observations

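Further genes with calls that held lie outside the lists, and they were chosen after their values were seen. In polyamine metabolism, Odc1, the ornithine decarboxylase, had log2 signals of 11.08, 11.27 and 10.92 with DMSO and 11.73, 11.92 and 11.95 at 6 h (1.71-fold higher, adjusted p = 1.23e-05), and Sat1, which acetylates spermidine and spermine, rose 1.47-fold (13.31, 13.47 and 13.01 against 13.72, 13.92 and 13.82). Oaz2, an antizyme that directs ornithine decarboxylase to degradation, was 1.55-fold lower (11.65, 11.57 and 11.67 against 10.95, 11.02 and 11.02), with an adjusted p of 0.185 for the mean of its probe sets. Groups did not overlap in these 3 genes.

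Pik3c3 and Pik3r4, the catalytic and regulatory subunits of the lipid kinase that starts autophagosomes, were 1.57-fold and 1.69-fold lower, and Atg101, a partner of Atg13, 1.66-fold lower (10.89, 10.47 and 10.83 against 9.87, 10.08 and 10.03, adjusted p = 0.000215). Among secreted and signalling genes, Thbs1, a matrix glycoprotein, rose 1.85-fold (9.77, 10.11 and 9.54 against 10.80, 10.65 and 10.62). Smad6, an inhibitor of bone morphogenetic protein signalling, was 2.22-fold lower (9.50, 9.46 and 9.40 against 8.53, 8.26 and 8.11), and Gdf5, a ligand of that pathway, 2.07-fold lower (7.83, 7.54 and 7.98 against 6.44, 6.55 and 7.23). Dido1, a chromatin reader, was 2.1-fold lower and Rbm12, an RNA-binding protein, 2.02-fold lower.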
